A study of Rattus norvegicus with 8 samples.

Results

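Neutrophil granule and receptor genes were followed in rat blood through 7 genes, S100a8, S100a9, Cybb, Il1r2, Fcnb, Retnla and Arg1. They were taken by name: every probe set whose platform annotation gave exactly 1 gene symbol, equal to one of these names, was used. This gave 8 of the 31042 probe sets for transcripts and 7 of the 14217 genes named by them, since Cybb had 2 probe sets. The arrays came from 4 male Wistar rats fed the high-fat Quick fat feed and 4 fed the normal CE-2 feed, both over 8 weeks. All animals were bought at 7 weeks of age, ate the normal feed in a first week of acclimation and gave blood on day 56 after a night without food. Each diet group of the study held 10 rats, and the sources used here do not name the 4 rats behind the arrays. The titles number the arrays of a diet as biological replicates, so 1 array stands for 1 animal here. A group that received mulberry leaf powder is not analysed here.

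Neutrophils are short-lived white cells that swallow and kill microbes, and they carry their weapons ready-made in the cytosol and in granules. S100a8 and S100a9 encode calcium-binding proteins that pair with each other to form calprotectin, an abundant protein of the neutrophil cytosol. Cybb encodes the catalytic subunit of the phagocyte NADPH oxidase, which makes superoxide and also works in monocytes, macrophages and B cells. Il1r2 is a decoy receptor that binds interleukin-1 without passing on a signal. Fcnb, ficolin B, is a lectin that binds sugar patterns on microbes, and in mice it is made by myeloid cells. Retnla and Arg1 are best known in mice as products of alternatively activated macrophages. Arg1 encodes the arginase of the urea cycle in liver, and in humans the enzyme is also stored in neutrophil granules.

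RefSeq promoter entries (build GRCr8) matched 4 of the 7 genes, S100a9, Cybb, Fcnb and Retnla. The 250 bases upstream of the annotated start are shown for Cybb and Fcnb, because these genes moved together over the animals, and for S100a9, the other covarying pair's member with an entry. Each runs 5′ to 3′ along the gene, and capitals mark matches, searched on both strands. The motifs were the TATA box, spelled TATAAA, the box named for its letters CCAAT, a core of C/EBP sites, spelled TTGCNNAA, and a core of PU.1 sites, spelled GAGGAA.
Cybb (chrX:16065066-16065315, minus strand): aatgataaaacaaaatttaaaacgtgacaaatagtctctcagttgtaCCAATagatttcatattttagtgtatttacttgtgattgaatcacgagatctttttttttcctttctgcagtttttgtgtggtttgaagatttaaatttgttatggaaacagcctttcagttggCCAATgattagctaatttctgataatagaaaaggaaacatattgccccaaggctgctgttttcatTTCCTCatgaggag
Fcnb (chr3:31800189-31800438, minus strand): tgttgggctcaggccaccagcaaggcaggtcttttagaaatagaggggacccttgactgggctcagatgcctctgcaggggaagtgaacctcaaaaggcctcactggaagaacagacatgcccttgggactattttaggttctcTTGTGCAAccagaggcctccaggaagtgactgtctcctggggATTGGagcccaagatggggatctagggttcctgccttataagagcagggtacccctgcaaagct
S100a9 (chr2:178490623-178490872, minus strand): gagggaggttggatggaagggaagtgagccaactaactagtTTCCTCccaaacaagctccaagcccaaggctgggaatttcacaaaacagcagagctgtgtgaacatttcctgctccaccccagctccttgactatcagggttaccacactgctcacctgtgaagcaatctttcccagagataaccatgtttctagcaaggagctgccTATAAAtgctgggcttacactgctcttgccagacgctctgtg
Cybb held 2 matches to the CCAAT box and 1 to the PU.1 core. Fcnb held 1 to the C/EBP core and 1 to the CCAAT box, and S100a9 held 1 to the TATA box and 1 to the PU.1 core. No matches overlapped. Among 33469 promoters of the same length, 12.9% held the TATA box, 34.0% the CCAAT box, 9.22% the C/EBP core and 23.3% the PU.1 core. Cybb and Fcnb thus shared the CCAAT box, which was the most frequent of these motifs, and none of the others. These matches describe letters and not binding. On the same assembly S100a8 and S100a9 are neighbours on chromosome 2 with 0 annotated genes between them.

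The deposited values read as log2 intensities between 5.19 and 15.25, with array medians of 6.60. The sources used here do not say how they were corrected, normalized and summarized. Values of a probe set hardly differ between arrays: the median SD over the 8 arrays was 6.07 millionths of a log2 unit, the 99th percentile was 413 millionths, and the largest was 139232 millionths. Such small differences cannot be read as log2 ratios of RNA, so no fold changes are given. Array values are stated below as the deviation from the mean of the 8 arrays in millionths of a log2 unit, and diet differences as high-fat minus normal in the same unit or in within-group SDs of the probe set. The medians of the arrays themselves lay up to 217 millionths apart, with high-fat replicate 4 highest at 137 and normal replicate 3 lowest at -80.1 around their mean. The medians separated by diet, with the lowest high-fat one at -4.01 and the highest normal one at -8.93.

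All 7 genes were on the array, and their signals ranked from near its bottom to near its top. S100a9 had a mean log2 level of 11.59, above 99.5% of probe sets, and S100a8 one of 10.19, above 98.9%. Cybb stood at 8.91 (97.0%) with its brighter probe set and at 7.00 (69.8%) with the second one. Fcnb stood at 8.78 (96.7%), Retnla at 8.55 (95.7%) and Il1r2 at 7.28 (79.4%). Arg1 was dim, with a level of 5.84 above only 6.29% of probe sets. These places rank signals of different probes and not amounts of RNA, and signal over background was not analysed here. Of the other neutrophil markers, the growth factor receptor Csf3r had a level of 7.89 (91.0%) and the chemokine receptor Cxcr2 one of 6.57 (48.3%). Blood markers of other cells were also bright, with Hbb of red cells at 15.09, Pf4 of platelets at 12.82 and Cd3g of T cells at 10.29. The values come from a mixture of these cells, so fewer cells of a type cannot be told apart from less RNA per cell.

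The genes split by how widely they ranged over the animals. Fcnb had an SD over the 8 arrays of 6880.2 millionths, wider than 99.9% of all probe sets. The brighter probe set of Cybb had an SD of 3636 (99.8%), Il1r2 one of 1993 (99.7%), S100a8 one of 852 (99.4%) and S100a9 one of 438 (99.03%). Retnla and Arg1 ranged no more than an ordinary probe set, with SDs of 8.84 (62.3%) and 5.11 millionths (44.1%). Probe sets of like level mostly ranged less than the widest members. Among 1069 probe sets whose level lay within 0.5 of that of Fcnb the median SD was 34.5 millionths, so Fcnb ranged 199.6 times as widely. Retnla, at nearly the same level, ranged 0.326 times as widely as the median of its 1470 level neighbours. How strongly the deposited values were compressed may differ between probe sets, so these ratios describe the table and not RNA.

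No member passed the test between the diets. By limma, with Benjamini-Hochberg adjustment over all 31042 probe sets, the adjusted p was 1.00 for each of the 8 probe sets, and 0.0% of the table passed 0.05. At an unadjusted p under 0.05 there were 0 of the 8, against 2.25% of the table. The groups overlapped in all 8, while 1.44% of the table's probe sets had groups that did not overlap. High-fat minus normal was above 0 in 4 of the probe sets and below 0 in 4. The differences ran from -0.997 to 1.01 within-group SDs, and the median over the 7 genes was -0.0328, against -0.0374 over all 14217 genes. In the exact permutation tests over the 70 ways to draw 4 arrays of 8, two-sided, the smallest p that can be reached is 0.0286, and the members gave 0.171 to 1.00.

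**Figure D1:**
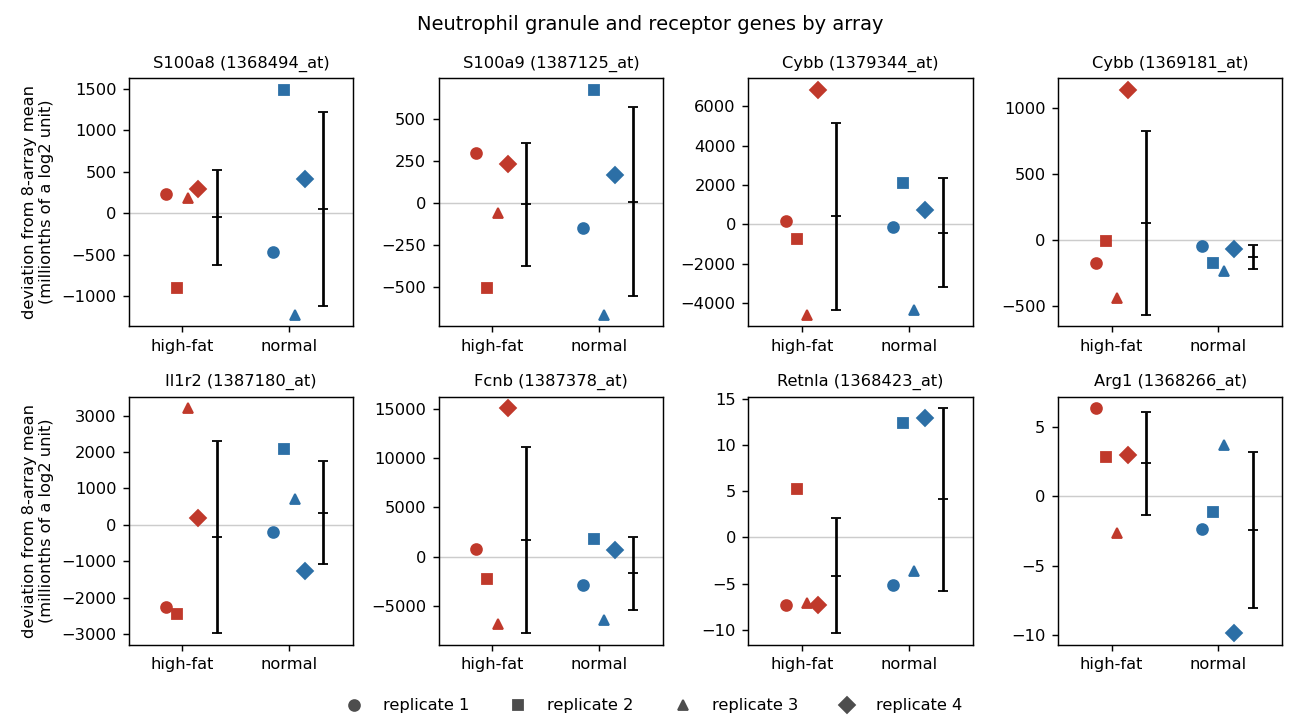
Each panel plots 1 probe set: the deviation of each array from the 8-array mean in millionths of a log2 unit, for 4 high-fat (red) and 4 normal (blue) animals, with marker shapes for the replicate numbers and black bars for mean ± SD. The diets overlap in every panel, the scales differ (Arg1 spans -9.88 to 6.38 millionths, while Fcnb reaches 15049.6 in high-fat replicate 4), and normal values bracket the high-fat ones for S100a8 and S100a9 while the reverse holds for Cybb, Il1r2 and Fcnb.

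The calprotectin genes had their extremes in normal animals. S100a8 deviated by 233, -907, 179 and 285 millionths in high-fat replicates 1 to 4, and by -464, 1486, -1224 and 412 in normal replicates 1 to 4. All high-fat values thus lay inside the span of the normal ones, with normal replicate 2 highest and normal replicate 3 lowest. The diet difference was -105 ± 611 millionths by limma (SE, n = 4 and 4), or -0.115 within-group SDs. S100a9 deviated by 298, -502, -58.2 and 231 millionths in high-fat animals, and by -147, 674, -663 and 167 in normal ones. The same normal animals formed its top and bottom, and the difference of -15.5 ± 314 millionths (SE) was the smallest of the members in within-group SDs, at -0.0328. High-fat replicate 2 was the low animal of its group for both genes.

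S100a8 and S100a9 followed each other closely. Over the 8 arrays Pearson's r was 0.969 (exact permutation p = 2.23e-04, adjusted over the 21 pairs of members to 0.00234) and Spearman's rho was 0.905 (exact permutation p = 0.00456, adjusted 0.0479). With deviations from the diet means r was 0.970, within the 4 high-fat arrays it was 0.927 and within the 4 normal arrays 0.993. It was 0.918 without normal replicates 2 and 3, the arrays farthest from the median of S100a8. A likeness of this strength was rare in the table: 11 of 13375 genes, 0.0822%, had r over 0.9 with S100a8, and 11 had so with S100a9. Without high-fat replicate 4 the counts were 26 and 29, and 11 and 9 genes passed both ways. Named by the rule of the 3 highest r over the 8 arrays, the genes most like S100a8 were S100a9 itself, the ubiquitin ligase gene Hecw1 (0.969) and the chromatin gene Ing1 (0.959). For S100a9 they were S100a8, the helicase gene Ercc6l (0.963) and again Ing1 (0.946). Apart from the S100 genes, their own SDs were only 1.19 to 11.2 millionths.

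**Figure D2:**
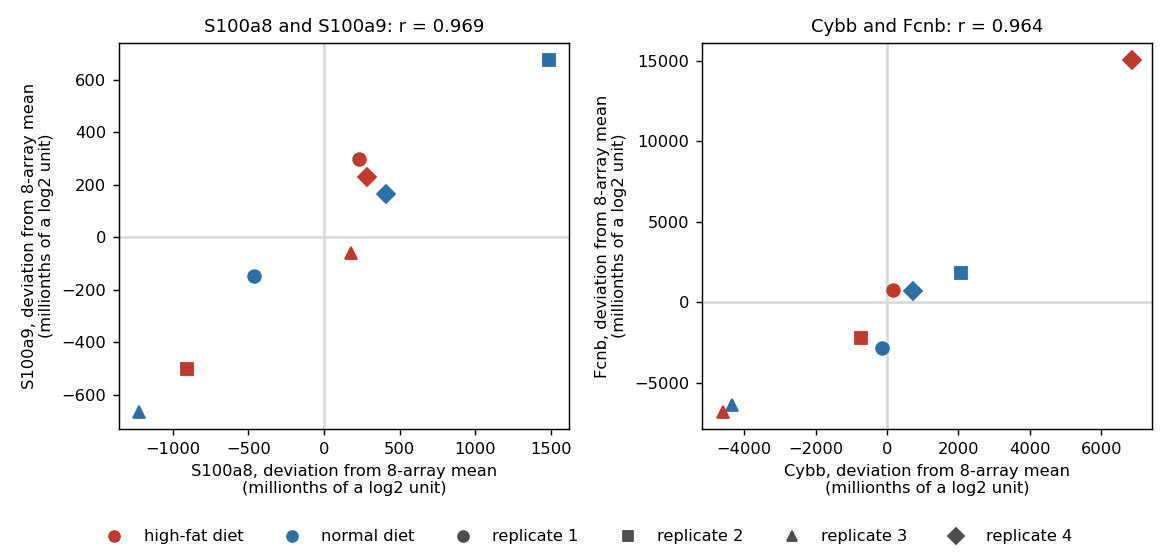
Each point is 1 array, with its deviation from the 8-array mean in millionths of a log2 unit for S100a8 against S100a9 (left) and Cybb against Fcnb (right), high-fat in red and normal in blue. Both pairs lie near a line (r = 0.969 and 0.964), the first stretched by normal replicates 2 and 3 and the second by high-fat replicate 4 at the top and both replicates 3 at the bottom.

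Cybb had its widest span in the high-fat group. With the brighter probe set it deviated by 154, -731, -4604 and 6856 millionths in high-fat replicates 1 to 4, and by -152, 2084, -4346 and 739 in normal replicates 1 to 4. High-fat replicate 4 was the highest animal and high-fat replicate 3 the lowest, just under normal replicate 3. The difference was 838 ± 2592 millionths (SE, n = 4 and 4), or 0.215 within-group SDs. It was -1308 ± 1900.4 without high-fat replicate 4 and -471 without normal replicate 3, so its sign turned when either animal was left out. The second probe set deviated by -176, -4.51, -440 and 1141 millionths in high-fat animals and by -46.9, -171, -238 and -65.0 in normal ones. It again put high-fat replicate 4 on top and high-fat replicate 3 at the bottom. Its difference was 260.5 ± 331 millionths (SE), and -76.5 ± 110.1 without high-fat replicate 4. The Cybb probe sets had r = 0.855 (exact permutation p = 0.00913) and rho = 0.595 (exact permutation p = 0.132), and r fell to 0.355 without high-fat replicates 3 and 4, so their likeness rested on these arrays.

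Fcnb, the ficolin, showed the widest range of the members. It deviated by 747, -2252, -6800.3 and 15049.6 millionths in high-fat replicates 1 to 4, and by -2838, 1792, -6419.7 and 721 in normal replicates 1 to 4. The order of the top and bottom animals was that of Cybb, with high-fat replicate 4 far above all others and both replicates 3 lowest. Its difference was 3372 ± 4769.8 millionths (SE, n = 4 and 4), or 0.470 within-group SDs, and -1083 ± 2663 without high-fat replicate 4.

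Cybb and Fcnb covaried over the animals. Between the brighter Cybb probe set and Fcnb r was 0.964 (exact permutation p = 1.49e-04, adjusted over 21 pairs 0.00234) and rho was 0.952 (exact permutation p = 0.00114, adjusted 0.0240). With arrays left out r was 0.938 without high-fat replicates 3 and 4, those farthest from the Cybb median, and 0.9597 without high-fat replicate 4 alone. Deviations from the diet means gave 0.973, the 4 high-fat arrays 0.990 and the 4 normal arrays 0.960. The second Cybb probe set had r = 0.922 with Fcnb (exact permutation p = 0.0136), but 0.158 without high-fat replicates 3 and 4. Many genes varied likewise: 339 of 13375 genes, 2.53%, had r over 0.9 with Cybb and 230, or 1.72%, with Fcnb. Without high-fat replicate 4 the counts were 558 for Cybb and 214 for Fcnb, and 167 of the 339 and 53 of the 230 passed both ways. Most like Cybb were the ribonuclease gene Rnaset2 (0.989), the blood transcription cofactor Lmo2 (0.988) and the aspartic protease gene Napsa (0.988). Those most like Fcnb were the peroxiredoxin gene Prdx5 (0.994), the myeloid receptor gene Cd300c2 (0.991) and the membrane protein gene Mal (0.990). Without high-fat replicate 4 these 6 genes had r of 0.954 to 0.987 with their member, which is partly built in, since they were picked over the same arrays.

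Genes of phagocytes were among those that followed Cybb and Fcnb; the genes named here were picked by r over 0.9, a cut chosen after the data were seen. Of the oxidase partners, Cyba, the membrane partner of Cybb, had r = 0.971 with Cybb and Rac2, the GTPase that activates the complex, 0.901, which makes 2 of 9 genes of that list. Without high-fat replicate 4 these values were 0.935 and 0.942. The S100 list leaves out calprotectin and includes S100pbp, a gene outside the family. In it 4 of 12 had r over 0.9 with Cybb, namely S100a4, S100a6, S100a10 and S100a11. These 4 stayed over 0.9 without high-fat replicate 4. With S100a8 or S100a9, 0 of the 12 had r over 0.9. With Fcnb, 3 of the 12 had r over 0.9, and 1 of them stayed so without high-fat replicate 4. Of the 9 oxidase genes, 1 had r over 0.9 with Fcnb, Cyba at 0.958, and it fell to 0.872 without that animal. Of 14 granule proteins, 2 had r over 0.9 with Cybb and 0 without that animal. With Fcnb the granule counts were 2 and 1. For S100a9, the genes of neutrophil receptors and signalling held 2 of 22 over 0.9, Anxa1 (annexin A1, 0.925) and Csf3r (0.903), while S100a8 had 0 of 22. Without high-fat replicate 4 Anxa1 stood at 0.922 and Csf3r at 0.8999 with S100a9. With Fcnb, 6 of those 22 were over 0.9 (C3ar1, Itgb2, Fcgr3a, Cd14, Pilra and Alox5ap), and 0 of 22 without high-fat replicate 4. With Cybb the counts were 5 and 3. C3ar1, counted with both genes, had an SD of only 2.85 millionths.

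Some markers of monocytes and natural killer cells moved with Cybb and Fcnb, and their part in the result was not tested. Of 9 measured monocyte markers of 10 listed, 3 had r over 0.9 with Fcnb (Csf1r 0.973, Cd68 0.980 and Adgre1 0.941), and 1, Cd68, without high-fat replicate 4. The same 3 had r over 0.9 with Cybb (Csf1r 0.946, Cd68 0.911 and Adgre1 0.953), and 1, Csf1r, without that animal. The median r of the monocyte list was 0.637 with Fcnb and 0.562 with Cybb, and without high-fat replicate 4 it was -0.101 and -0.304. The mean log2 level of these markers ranged between 7.0081 and 7.0108 in high-fat arrays and between 7.0080 and 7.0090 in normal arrays. On a scale where each gene has mean 0 and SD 1 over the arrays, the monocyte list stood at 1.48 in high-fat replicate 4 and between -0.493 and 0.149 in the other 7 animals. The natural killer cell list, all 7 measured, stood at 2.02 there, against -0.654 to 0.0922 in the others, and 3 of its genes had r over 0.9 with Fcnb over the 8 arrays and 0 without that animal. With Cybb the counts were 1 and 0. Its mean log2 level ranged between 7.515 and 7.520 in high-fat arrays and between 7.514 and 7.516 in normal arrays. Of 10 T cell, 4 B cell and 8 eosinophil, basophil and mast cell markers, 0 had r over 0.9 with either gene over the 8 arrays. Over all genes the share was 2.53% with Cybb and 1.72% with Fcnb, so 0 is near it for lists this short. Without high-fat replicate 4, 1 of the B cell markers had r over 0.9 with Cybb, as did 4.17% of all genes. The median r of the B cell list was then 0.856 with Fcnb and 0.822 with Cybb, against 0.228 and 0.383 over the 8 arrays. For the T cell list it was then 0.574 and 0.674, against 0.138 and 0.329. The platelet list was low in high-fat replicate 4, at -1.41 against -0.241 to 0.578. Neutrophil receptors and signalling genes were also highest in that animal, at 1.33 against -0.714 to 0.497 in the others. So were myeloid transcription factors (1.15 against -0.441 to 0.295) and granule proteins (0.640 against -0.632 to 0.590). The oxidase list was not, at 0.248 against -0.527 to 0.266. No marker of the monocyte or natural killer lists is at 0 in this table, which holds no value under 5.19.

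Between the pairs r over the 8 arrays was lower, and it differed by diet group in size, a difference that was not tested. S100a8 had r = 0.490 with Cybb (exact permutation p = 0.211, adjusted 0.739) and 0.425 with Fcnb (0.296, adjusted 0.886, both exact). S100a9 had 0.601 with Cybb (exact permutation p = 0.109, adjusted 0.739) and 0.533 with Fcnb (exact permutation p = 0.178, adjusted 0.739). Within the 4 high-fat arrays these 4 relations had r of 0.235 to 0.512, but within the 4 normal arrays they had 0.915 to 0.966, close to those inside the pairs. In ranks these 4 relations were closer, with rho between 0.714 and 0.786 and adjusted p of 0.193 to 0.202 by exact permutation. High-fat replicate 4, far above the rest for Cybb and Fcnb, was ordinary for S100a8 and S100a9. Of the 21 pairs of members, 2 passed an adjusted p of 0.05, the 2 described above, by Pearson's and by Spearman's coefficient alike. The 21 values of r ran from -0.565 to 0.969 with a median of 0.141.

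**Figure D3:**
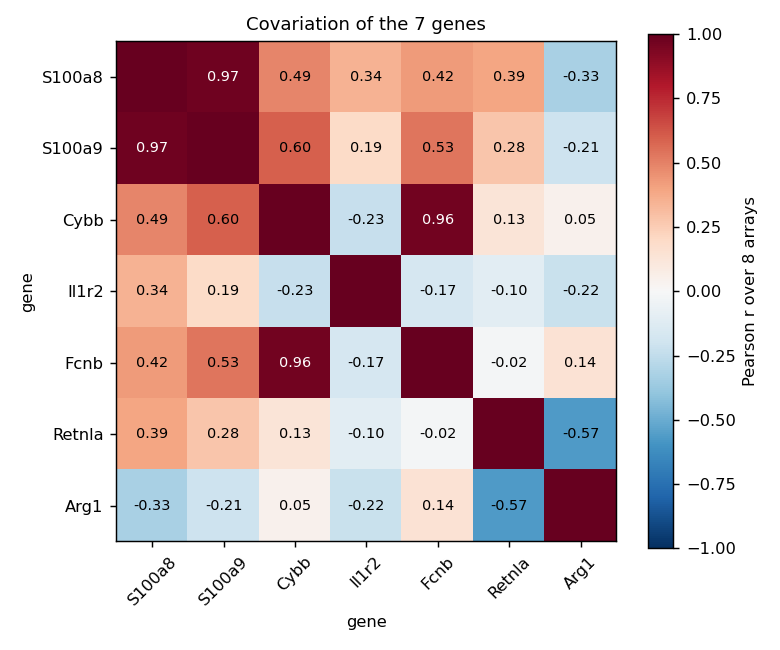
Pearson's r over the 8 arrays between the representative probe sets of the 7 genes, from -1 (blue) to 1 (red). S100a8 with S100a9 (0.97) and Cybb with Fcnb (0.96) stand out, and the rows of Il1r2, Retnla and Arg1 hold no value past an adjusted p of 0.05.

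Il1r2, the decoy receptor, followed neither pair. It deviated by -2262, -2446, 3201 and 179 millionths in high-fat replicates 1 to 4, and by -202, 2072, 716 and -1257 in normal replicates 1 to 4. High-fat replicate 3, lowest for Cybb and Fcnb, was highest here, and high-fat replicates 1 and 2 were lowest. The difference was -665 ± 1409 millionths (SE, n = 4 and 4), or -0.314 within-group SDs. Its r with the other members lay between -0.232 and 0.345. Few genes shared its pattern: 3 of 13375, 0.0224%, had r over 0.9, and 14 without high-fat replicate 4. The most alike were Anks4b (0.943), the phosphodiesterase gene Pde8b (0.940) and the vitamin C transporter gene Slc23a2 (0.933), all with levels of 6.18 to 6.57. Their own SDs were only 4.86 to 7.02 millionths.

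Retnla and Arg1 had the largest differences in within-group SDs and the smallest in log2 units. Retnla deviated by -7.34, 5.26, -7.11 and -7.31 millionths in high-fat replicates 1 to 4, and by -5.19, 12.4, -3.66 and 12.98 in normal replicates 1 to 4. High-fat replicates 1, 3 and 4 thus lay close together at the bottom, and normal replicates 2 and 4 formed the top. Its difference was -8.25 ± 5.56 millionths (SE, n = 4 and 4), or -0.997 within-group SDs (limma p = 0.183, adjusted 1.00, exact permutation p = 0.171). Arg1 deviated by 6.38, 2.86, -2.61 and 2.997 millionths in high-fat animals, and by -2.33, -1.12, 3.72 and -9.88 in normal ones. High-fat replicate 1 was highest, but normal replicate 3 came second, so the groups overlapped. Its difference was 4.81 ± 3.26 millionths (SE), or 1.01 within-group SDs (limma p = 0.185, adjusted 1.00, exact permutation p = 0.286). Both genes ranged over fewer millionths (20.3 and 16.3) than the array medians did, 217. Centring each array on its median turned the difference of Arg1 to -61.1 millionths and the correlation between Retnla and Arg1 from -0.565 (exact permutation p = 0.146) to 0.981. The direction of Arg1 and the correlation of the 2 genes thus turned with the scale. After centring both genes mostly carried the same array medians, so an r near 1 was built in and does not describe their covariation. Retnla was at -74.2 millionths after centring, which moves every difference by -66.0 and so could not have turned it. After quantile normalization on top it was at -846.

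The genes most like Retnla and Arg1 were as narrow as they are. For Retnla they were Serinc5 (0.969), the mitochondrial import gene Timm8a1 (0.962) and Pogz (0.948), and for Arg1 the mitochondrial release factor gene Mtrf1 (0.985), the acetylcholine receptor gene Chrna9 (0.975) and Cblc (0.945). Their SDs were 2.91 to 14.5 millionths. Of the resistin relatives of Retnla, 0 of 3 listed genes were measured under 1 symbol here. Of 9 measured liver markers, the brightest, Serpina1, had a level of 6.85.

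Genes around the members were read from lists by role, each gene by its brightest probe set. None of these genes passed an adjusted p of 0.05 by limma. Over all 14217 genes, 6740 were above 0 and 7471 below in high-fat minus normal, with 2.0% at an unadjusted p under 0.05. The S100 list, S100pbp included, had 6 of 12 above 0 and 1 at an unadjusted p under 0.05, with a median of 0.0123 within-group SDs. That gene was S100a13, a calcium-binding partner in protein export, at 2.41 within-group SDs (limma adjusted p = 1.00) and a low level of 6.23. All its high-fat values lay above its normal values, which 1.32% of genes did in either direction. S100a3 stood at -1.004, and S100a10, the brightest of the list, at 0.0247.

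The oxidase list had 5 of 9 genes above 0, a median of 0.0445 within-group SDs and 1 gene at an unadjusted p under 0.05. That gene was Rac1, a GTPase of the complex in macrophages, at 1.62 within-group SDs (limma adjusted p = 1.00). The cytosolic subunit Ncf1 stood at -1.41 and the bright Rac2 at 0.0445. In the list around the interleukin-1 receptor family, ligands and signalling genes included, 8 of 14 were above 0. Its median was 0.196, with 1 gene at an unadjusted p under 0.05. Il1rl1, the interleukin-33 receptor, stood at -1.80 (limma adjusted p = 1.00), the shared chain Il1rap at -1.43, and the kinase gene Irak1, the brightest, at 0.277. The ficolin and lectin complement list had 3 of 7 above 0 and a median of -0.0814. Fcna, the second ficolin, stood at 0.668 and complement C3, the brightest of the list, at 0.348.

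Granule proteins had 11 of 14 measured genes above 0, a median of 0.155 within-group SDs and 0 at an unadjusted p under 0.05. Lysozyme Lyz2, the brightest at a log2 level of 13.22, stood at 0.548, haptoglobin Hp at 0.954 and the defensin gene RatNP-3b at 0.811. Receptors and signalling genes of neutrophils had 16 of 23 above 0, a median of 0.202 and likewise 0 at an unadjusted p under 0.05. The integrin chains Itgb2 (0.202) and Itgam (0.619), which together form the complement receptor CR3, and the leukotriene receptor Ltb4r (-0.600) were the named members. Arginine genes had 6 of 15 above 0 and a median of -0.0382, with the second arginase Arg2 at -1.12, the inducible nitric oxide synthase Nos2 at -0.859 and the polyamine enzyme Odc1 at -0.0135. Myeloid transcription factors had 7 of 10 above 0 and a median of 0.119, with Pparg at 0.848, Irf8 at 0.643 and Runx1 at 0.126. Neither of these lists had a gene at an unadjusted p under 0.05. With each gene scaled to mean 0 and SD 1, receptors and signalling genes stood at -0.137, -0.714, -0.184 and 1.33 in high-fat replicates 1 to 4. Normal arrays ran from -0.447 to 0.497. Myeloid transcription factors stood at -0.378, -0.0233, -0.366 and 1.15, against -0.441 to 0.295 in normal arrays. High-fat replicate 4 was thus the only high-fat animal above the normal span in both lists.

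Markers of other blood cells also leaned to one side between the diets, with 0 past an adjusted p of 0.05 by limma, and their part in the counts of the neutrophil lists was not tested. The erythroid list had 6 of 7 genes above 0 in high-fat minus normal, a median of 1.40 within-group SDs and 3 genes at an unadjusted p under 0.05. The natural killer cell list had 7 of 7 above 0 (median 0.745), the monocyte list 7 of 9 (0.409) and the eosinophil, basophil and mast cell list 7 of 9 (0.884). T cell markers had 1 of 10 above 0 (median -0.325), B cell markers 1 of 5 (-0.189) and platelet markers 2 of 6 (-0.121). The liver markers, which do not mark a blood cell, also had 7 of 9 above 0 (0.173). The erythroid, natural killer, monocyte and eosinophil medians were thus higher than those of the granule proteins and of the receptors and signalling genes. Scaled to mean 0 and SD 1, monocyte markers stood at -0.263, -0.487, -0.133 and 1.48 in high-fat replicates 1 to 4. Normal arrays ran from -0.493 to 0.149. Natural killer markers stood at 0.0922, -0.149, -0.436 and 2.02, against -0.654 to 0.00725. Erythroid markers stood at 1.07, 0.184, 0.781 and -0.193, against -0.587 to -0.331.

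These counts of signs depended on the scale. Taking each array's median off its values moves all differences by -66.0 millionths and left 338 of the 14217 genes above 0. It left 1 of 14 granule proteins, 6 of 23 receptors and signalling genes, 1 of 12 genes of the S100 list and 0 of 9 oxidase genes above 0. Of the markers it left 5 of 7 natural killer, 4 of 7 erythroid, 3 of 9 monocyte and 0 of 9 eosinophil, basophil and mast cell genes above 0. With quantile normalization on top, 3411 of the 14217 genes were above 0, 4994 were below and 5812 were equal. Of the granule proteins 7 were then above 0, 1 was below and 6 were equal. Receptors and signalling genes had 9 above, 7 below and 7 equal. Above 0 were 7 of 7 natural killer and 8 of 9 monocyte markers, while the erythroid markers were split at 2 above and 2 below.

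**Figure D4:**
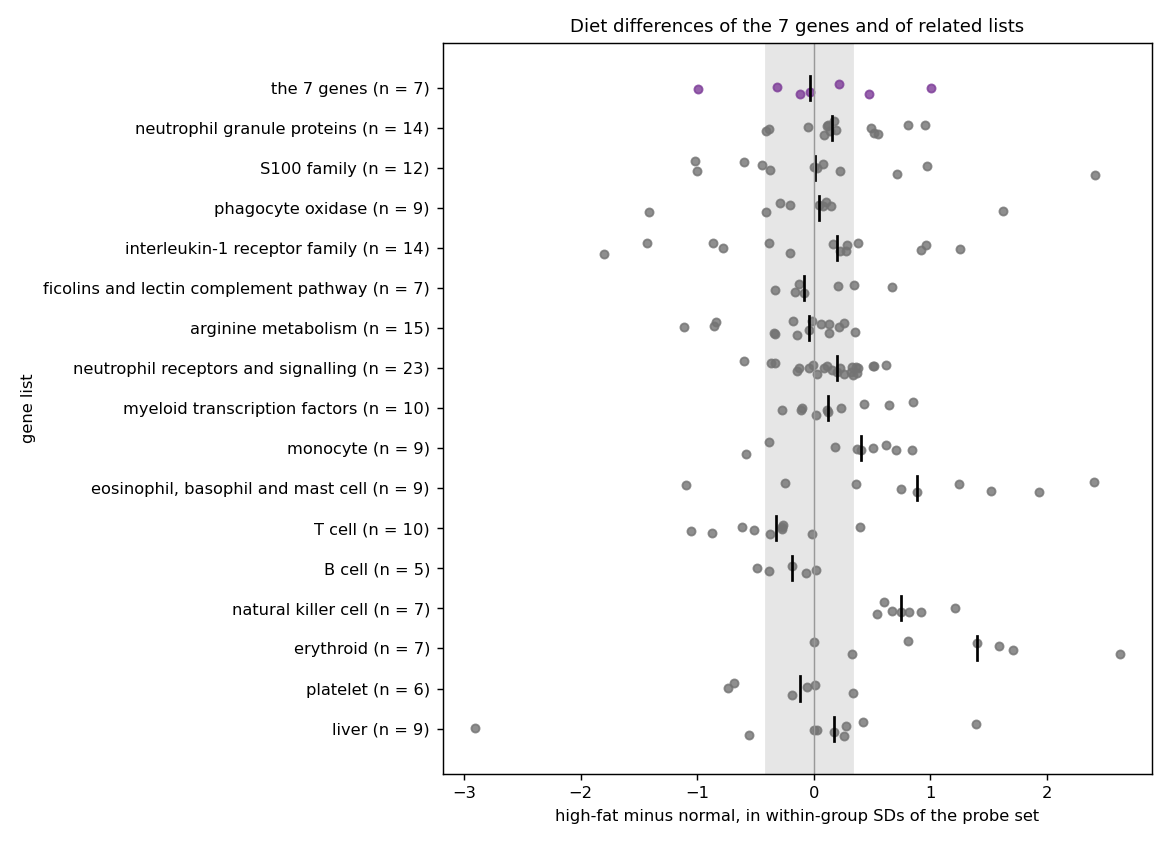
Each point is 1 gene, with high-fat minus normal in within-group SDs of its probe set on the horizontal axis and lists in rows, the 7 genes on top in purple. Black ticks are list medians and the grey band holds the middle of all 14217 genes, from -0.412 to 0.338 (the lower and upper quartiles), and the 7 genes lie on both sides of 0 between -0.997 and 1.01.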

How the data were processed

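Total RNA of whole blood was extracted with a phenol reagent, column-purified and, from 200 ng, amplified and biotin-labelled for Affymetrix 3' arrays, per the labels' protocols. The deposited table of the authors holds 1 value per probe set and array that reads as a log2 level. Its background correction, normalization and probe summary are not given in the sources used here. A differently normalized table could show other differences. The members and gene lists were chosen with earlier results of these data known.

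Of 31099 probe sets, 57 controls were left out. The platform annotation gave 1 symbol for 20826 of the rest, several for 436 and none for 9780. Samples were grouped by their titles. A linear model of diet alone was fitted to each probe set (limma 3.58.1 under R 4.3.3, moderated by eBayes, two-sided). Adjustment by Benjamini-Hochberg covered all 31042 probe sets, and 0.05 was the threshold. Correlations were computed in Python 3.11.15 with SciPy 1.17.1 and NumPy 2.4.6, with exact permutation of pairings, two-sided. A gene was represented by its probe set with the highest mean. The number of arrays limits the precision.

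Named were all 7 members, the 3 genes with the highest r with each (probe sets with an SD of at least 1e-06), the 2 genes with the smallest p and the brightest gene of each pathway list, and the brightest gene of each marker list. Alternatives were quantile normalization on top, median centring, eBayes with trend and robust, a filter on dim probe sets, the replicate block, leaving out each array, and the mean over the probe sets of a gene. Results without high-fat replicate 4 for the correlated genes were added after seeing the data. Slide, scan date and background correction could not be varied from this table.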

Additional observations from a re-analysis of the deposited data

Results flagged for a closer look

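High-fat replicate 2 stood apart from the other high-fat animals for S100a8, at -907 millionths against 179 to 285. Its gap to the nearest animal was 0.911 of the range of the group, over Dixon's 95% critical value for 4 samples. The same animal stood apart for Retnla, at 5.26 millionths against -7.34 to -7.11, with a ratio of 0.982. These were 2 of 16 groups looked at, and chance flags about 1 in 20.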

How the results depend on the processing

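With 4 arrays a group, small diet differences of the members cannot be seen. Whether the replicate numbers pair the animals is not settled: same-numbered arrays correlated at -0.125, 0.205, 0.368 and 0.144 after removal of the group means, differently numbered ones at -0.296 to 0.199, and the labels name no shared source. With the replicate block 1111 probe sets had an unadjusted p under 0.05, against 699 without it, and 0 passed adjustment. Quantile normalization on top gave 370 at an unadjusted p under 0.05, 32 past adjustment and 61 without overlap of the diets, against 699, 0 and 448. The filter on dim probe sets, which tests fewer, gave 453. Leaving out 1 array gave 580.0 to 1262, the highest without normal replicate 3. Centring put 15556 probe sets without overlap. It takes off each array its own median, and all 4 high-fat medians lay above all 4 normal ones. Narrow probe sets are therefore set apart by diet through the medians alone.

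No member passed limma's adjusted p of 0.05 under any of these alternatives in which it was tested. Arg1, with a level above only 6.29% of probe sets, was not tested under the filter on dim probe sets. Quantile normalization turned S100a8 to 182 millionths and put S100a9 and Arg1 at 0. Centring turned Arg1 to -61.1, which follows from the shift of the array medians. Leaving out 1 array gave -531 to 373 millionths for S100a8, -239 to 207 for S100a9, -1308 to 2512 and -76.5 to 450.4 for the Cybb probe sets, -1842 to 40.2 for Il1r2 and -1083 to 6200.7 for Fcnb. The sign held for Retnla (-11.4 to -5.30) and Arg1 (2.32 to 6.85). Both called correlations held under centring, diet means removed, mean probe sets and leaving out 1 array, with r from 0.953 to 0.983 for S100a8 and S100a9 and from 0.9597 to 0.975 for Cybb and Fcnb over arrays left out. They were not computed after quantile normalization. Centring added Retnla and Arg1 as the pair past an adjusted p of 0.05, 0.0198 by exact permutation of Pearson's r. That result was built in, since centring takes the same array medians, 217 millionths apart, off 2 genes that span 20.3 and 16.3. By Spearman's rho the adjusted p after centring was 0.257 by exact permutation.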
